A study of Homo sapiens with 22 samples.

Results

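The interleukin-1 receptors, ligands and antagonist were followed across 22 libraries of human renal cancer cell lines. The 9 genes were taken by symbol from the 25343 genes that each deposited file lists: the receptors IL1R1, IL1RAP, IL1R2 and IL1RL1, the ligands IL1A, IL1B, IL18 and IL33, and the receptor antagonist IL1RN. The family was chosen by its earlier measured values, after IL1R1 had been seen at lower levels with the guides iMAE-1.1 and iMAE-1.2 in these libraries, so its values in those comparisons are a description without a test. The series title speaks of enhancer profiling in metastasis, and polyadenylated RNA of cultured cells was sequenced. OS-LM1, another metastatic renal line, unrelated to 786-O, gave 2 libraries. The metastatic line written M1A here, which the labels and figures give with the number of its parent 786-O before these letters, was studied with CRISPRi, or CRISPR interference, where an inactive Cas9 brings a repressor to the DNA that a guide RNA names. It gave 4 libraries with the guide iMAE-1.1, 4 with iMAE-1.2, 2 with iMAE-126 and 6 with the non-targeting control SC. Unmodified M1A cells gave 2 libraries, as did 786-O, the clear cell renal carcinoma line from which M1A was selected. All 16 CRISPRi libraries therefore carry the M1A background, and the labels do not name the element or gene that an iMAE guide addresses. The labels do not say whether replicates came from distinct cultures, so a p-value here measures spread between libraries that may be technical.

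Interleukin-1 alpha (IL1A) and interleukin-1 beta (IL1B) bind the receptor IL1R1, which recruits the co-receptor IL1RAP and passes the signal through MYD88 and the IRAK kinases to NF-kB and MAP kinases. IL1R2 binds the ligands without signalling and acts as a decoy, and IL1RN occupies IL1R1 without starting a signal. IL1RL1 is the receptor of the alarmin IL33 and also uses IL1RAP, whereas IL18 acts through receptors of its own. IL1B and IL18 are made as precursors that caspase-1 cleaves in inflammasomes, while IL1A is cleaved by calpains and other proteases. Epithelial cells, including those of the kidney tubule, are known to hold IL18 and to answer to interleukin-1.

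Library totals ranged from 9.06 to 52.7 in units of 1e6 expected counts. By the count-weighted mean length of their genes, the CRISPRi libraries divide into 2 sets, for which there is no label. In set A (4 libraries: both of iMAE-126, with SC replicates 1 and 2) this length was 3528 to 3716 bases. In set B (12 libraries: those of the other guides, with SC replicates 3 to 6) it was 3264 to 3395 bases. Each guide was compared with the SC libraries of its own set through a set term. Renal epithelial markers summed to between 1483 and 1982 CPM (counts scaled to library size with TMM factors) in every library, and of these 9 markers CA9 alone lay below 1 CPM, in the 786-O and M1A backgrounds. Of 9 leukocyte markers, PTPRC, CD14, CD3E, MS4A1 and TPSAB1 averaged less than 1 CPM in each group. The leukocyte sum was 46.6 to 55.2 CPM in OS-LM1, 88.9 to 90.1 CPM in M1A and 38.5 to 40.1 CPM in 786-O. CD68 made up most of it, with means of 43.3 CPM in OS-LM1, 84.3 CPM in M1A and 33.4 CPM in 786-O. LYZ averaged 2.53 to 11.1 CPM over the groups. ITGAM averaged above 1 CPM in OS-LM1 only, and CSF1R in every group but OS-LM1. Of 5 endothelial markers, CDH5, VWF and TEK stayed below 1 CPM in each group. KDR averaged less than 1 CPM in each group, and PECAM1 averaged 0.606 to 2.93 CPM. In such bulk libraries, fewer cells that express a gene and less RNA per cell cannot be told apart.

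IL1R1, IL1RAP, IL1R2 and IL18 had counts in all 22 libraries and passed the filter on low counts in each of the 6 comparisons. IL1A and IL1B passed it among the unmodified lines, where OS-LM1 was high, and IL1RL1, IL1RN and IL33 passed it nowhere. IL1A and IL1B thus entered the test only through the group in which they are high, and the counts here leave them out. Of the 4 members with reads throughout, 3 were higher and 1 was lower in OS-LM1 than in M1A, where 68.7% of all 16354 genes tested were called at an edgeR adjusted p under 0.05 (34.4% higher, 34.3% lower). Between M1A and 786-O, 1 of these 4 was higher and 2 were lower in M1A, against 31.0% of all genes (14.7% higher, 16.3% lower). Of the 4 tested between iMAE-126 and SC, 1 was higher and 1 was lower with iMAE-126, against 16.7% of all genes (6.31% higher, 10.4% lower). Between SC and unmodified M1A, 1 of 4 was lower in SC, against 53.0% of all genes (27.8% higher, 25.3% lower). The OS-LM1 background is high enough that the members' call count there says little, and the sizes below carry the description. For iMAE-1.1 and iMAE-1.2, which the choice of the family used, 1 of 4 and 2 of 4 members were called, all lower, beside 1.79% of all genes with iMAE-1.1 (0.911% higher, 0.878% lower) and 2.73% with iMAE-1.2 (1.39% higher, 1.34% lower), and nothing is read from these counts.

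IL1R1, the signalling receptor, was at 104 and 86.2 CPM in OS-LM1, 29.5 and 32.1 CPM in M1A, with 58.6 and 59.8 CPM in 786-O. The libraries of the 3 lines did not overlap, and M1A was the lowest. In OS-LM1 it was 3.12-fold above M1A, with a log2 fold change of 1.64 ± 0.12 (SE, edgeR adjusted p = 1.16e-05). In M1A it was 1.98-fold below 786-O (log2 fold change −0.98 ± 0.12, edgeR adjusted p = 0.000615). RefSeq lists 4 promoter windows for the gene, each 250 bases before a transcript start. The window of the most downstream start, at chr2:102142496-102142745 on the plus strand of GRCh38.p14, is shown as the one with the highest G and C content, so its contrast in composition with the ligand windows below is set by this choice.
IL1R1: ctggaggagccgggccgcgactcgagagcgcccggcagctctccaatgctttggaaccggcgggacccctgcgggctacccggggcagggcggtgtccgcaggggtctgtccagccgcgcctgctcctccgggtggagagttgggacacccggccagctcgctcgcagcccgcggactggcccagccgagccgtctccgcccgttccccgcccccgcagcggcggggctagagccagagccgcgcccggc
It holds 76.8% G and C and 31 CG dinucleotides, against medians of 58.0% and 11 over all 35116 RefSeq windows. None of the searched motifs (TATAAA for a TATA box, TGANTCA for AP-1, TTNNGNAAT for C/EBP, and GGG, any 2 bases, then TTTCC for NF-kB, on both strands) was present in these letters. The other 3 windows of IL1R1 hold 39.6% to 52.4% G and C, and the one at 39.6% holds TATAAA 2 times on the minus strand, beginning 229 and 124 bases before its start.

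Under CRISPRi, IL1R1 was at 65.0 and 68.1 CPM with iMAE-126, against 45.7 and 52.4 CPM in SC replicates 1 and 2, the controls of its set. The groups did not overlap, and the log2 fold change was 0.44 ± 0.11 (edgeR adjusted p = 0.0105). The call was lost without SC replicate 1 (edgeR adjusted p = 0.109), without iMAE-126 replicate 1 (0.0538) or replicate 2 (0.0773), where a lone library is taken to vary like the other groups, and on log2(TPM + 1) with limma (0.0539). With iMAE-1.1, IL1R1 was at 20.9, 20.4, 18.3 and 16.4 CPM, and with iMAE-1.2 at 16.8, 16.2, 17.0 and 18.9 CPM, against 27.1, 28.6, 29.6 and 27.0 CPM in SC replicates 3 to 6. All 8 libraries with these guides lay below all 4 of their controls. The log2 differences were −0.57 with iMAE-1.1 and −0.70 with iMAE-1.2. IL1R1 was thus above its controls with 1 guide and below its controls with the others, but the controls are different libraries, and this difference between guides was not tested.

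**Figure D1:**
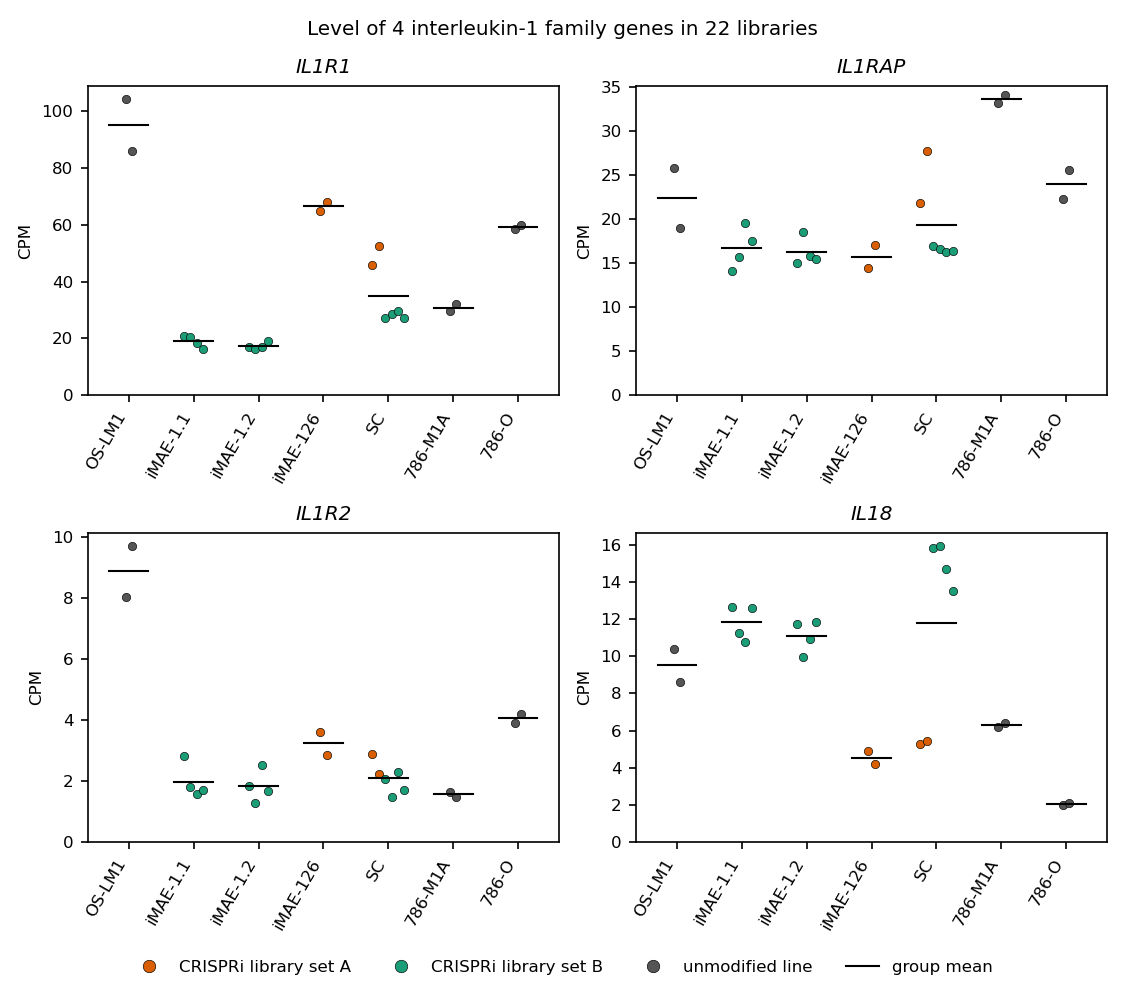
CPM of IL1R1, IL1RAP, IL1R2 and IL18 (y axes, from 0) in each of the 22 libraries, with the 7 groups on the x axes, points coloured by library set and bars at group means. IL1R1 reached 104 CPM in OS-LM1, and the SC points of IL1R1 and IL18 divide by library set.

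IL1RAP, the co-receptor, did not follow IL1R1. It was at 25.7 and 18.9 CPM in OS-LM1, 33.1 and 34.1 CPM in M1A, with 22.3 and 25.6 CPM in 786-O, so that M1A was the highest of the lines. In OS-LM1 it fell by 0.57 ± 0.15 on the log2 scale against M1A (SE, edgeR adjusted p = 0.0106), a call lost without M1A replicate 2 (0.0516). Between M1A and 786-O the log2 fold change of 0.45 ± 0.15 missed the threshold (edgeR adjusted p = 0.0528) although the libraries did not overlap. It passed with RLE factors (0.0378), with DESeq2 (0.0294), without the filter on low counts (0.0103) and with the M1A and 786-O libraries alone (9.38e-05). The last of these fits also called more of all genes than the main fit. With 1 M1A or 786-O library left out, the IL1RAP log2 fold change ranged from 0.36 to 0.55. With iMAE-126, IL1RAP was at 14.4 and 17.0 CPM, against 21.8 and 27.7 CPM in SC replicates 1 and 2. It fell by 0.65 ± 0.15 on the log2 scale (edgeR adjusted p = 0.0073), a call lost without SC replicate 2 (0.117), without iMAE-126 replicate 1 (0.0829) or without the set term (0.309). With iMAE-1.1 it ranged from 14.1 to 19.5 CPM and with iMAE-1.2 from 15.0 to 18.5 CPM, against 16.3 to 16.9 CPM in SC replicates 3 to 6. These ranges overlapped, and the log2 differences were 0.02 and −0.02.

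The decoy receptor IL1R2 had fewer reads, with 16 to 202 counts per library. It was at 8.03 and 9.72 CPM in OS-LM1, 1.64 and 1.48 CPM in M1A, with 3.89 and 4.20 CPM in 786-O. The order of the lines was that of IL1R1, with M1A lowest, and no libraries overlapped. The log2 fold change was 2.51 ± 0.20 between OS-LM1 and M1A (SE, edgeR adjusted p = 1.59e-05) and −1.41 ± 0.20 between M1A and 786-O (edgeR adjusted p = 0.00117). With iMAE-126, IL1R2 was at 3.61 and 2.85 CPM, against 2.88 and 2.22 CPM in SC replicates 1 and 2, and the overlapping values gave a log2 fold change of 0.32 ± 0.32 (edgeR adjusted p = 0.532). With iMAE-1.1 it ranged from 1.57 to 2.83 CPM and with iMAE-1.2 from 1.29 to 2.53 CPM, against 1.47 to 2.28 CPM in SC replicates 3 to 6, again with overlap. IL1RL1, the receptor of IL33, had 0 to 17 counts per library and at most 0.578 CPM, so that its differences were not measurable at this depth.

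Because TPM is set per transcript length, it allows levels of different genes to be set against each other within a library. The TPM of IL1RAP divided by that of IL1R1 was 0.26 and 0.28 in OS-LM1, 1.41 and 1.44 in M1A, and 0.47 and 0.53 in 786-O. IL1RAP transcripts thus exceeded IL1R1 transcripts in unmodified M1A and were fewer than IL1R1 transcripts in the other lines. They were also fewer than IL1R1 transcripts in every SC library, although SC carries the M1A background. With iMAE-126 this TPM ratio was 0.27 and 0.30, against 0.60 and 0.67 in SC replicates 1 and 2. With iMAE-1.1 it ranged from 0.89 to 1.30 and with iMAE-1.2 from 1.09 to 1.34, against 0.68 to 0.76 in SC replicates 3 to 6, as a description. The SC libraries of both sets lay between 0.60 and 0.76 in this ratio, although IL1R1 itself was 1.75 times as high in set A as in set B. The TPM ratio of IL1R2 to IL1R1 was 0.27 and 0.40 in OS-LM1, 0.17 and 0.20 in M1A, and 0.24 and 0.25 in 786-O, so the decoy stayed below the signalling receptor in every line.

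**Figure D2:**
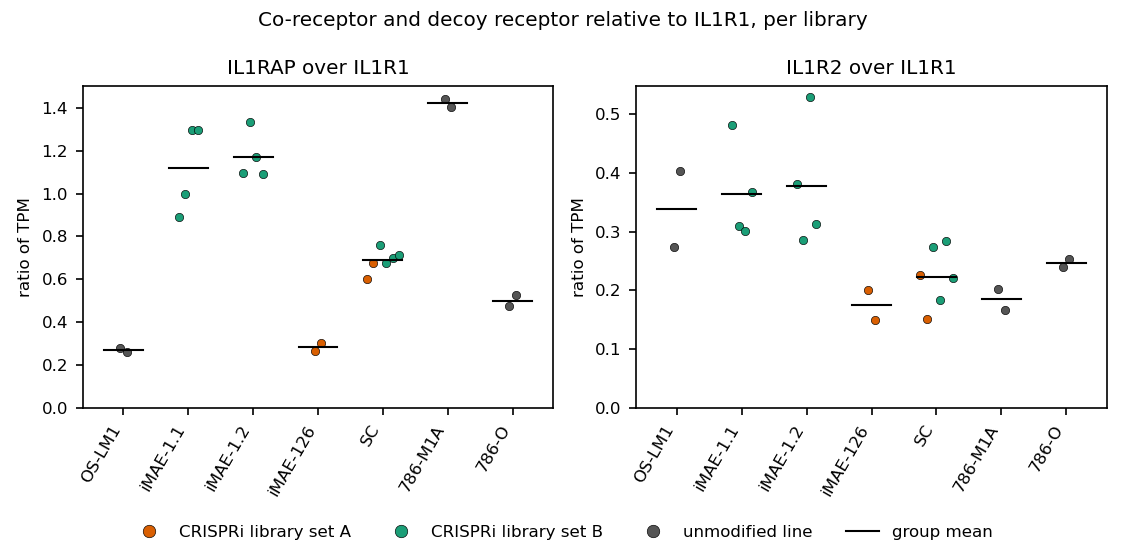
TPM of IL1RAP (left) and IL1R2 (right) divided by TPM of IL1R1 (y axes, no unit, from 0) in each library, with the 7 groups on the x axes and bars at group means. The IL1RAP ratio is above 1.4 in both M1A libraries and at most 0.30 in OS-LM1 and iMAE-126.

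The ligands IL1A and IL1B were close to the limit of detection outside OS-LM1. IL1A had 103 and 65 counts (4.10 and 4.0 CPM) in the OS-LM1 libraries, 1 and 5 counts in those of M1A, and 9 and 2 counts in those of 786-O. All OS-LM1 values lay above all others, and no test is given for this difference, since the gene passed the filter through OS-LM1. IL1B had 41 and 41 counts (1.63 and 2.52 CPM) in OS-LM1, 3 and 0 counts in M1A, and 0 and 1 count in 786-O. The OS-LM1 level was 57.4 times that of M1A, with an exact 95% interval of 19.0 to 284 that covers counting error only, again with no test. Over the 20 other libraries IL1A had 0 to 9 counts and IL1B 0 to 8 counts, and the differences among those groups were not measurable at this depth. For M1A against 786-O no test is given either, since IL1A and IL1B entered that fit through OS-LM1. On the TPM scale the ligands in OS-LM1, at 2.62 to 2.74 for IL1A and 2.16 to 3.27 for IL1B, were well below their receptor IL1R1, at 40.2 and 32.7.

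**Figure D3:**
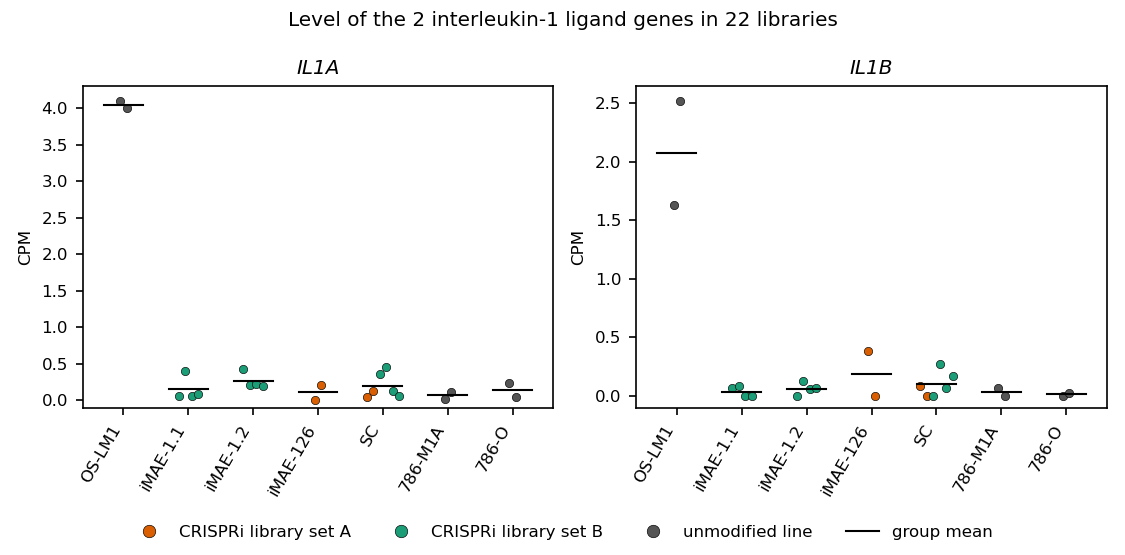
CPM of IL1A and IL1B (y axes) in each of the 22 libraries, with the 7 groups on the x axes and bars at group means. Both ligands are at 1.63 CPM or more in OS-LM1 and below 0.5 CPM in every other library.

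The ligand genes lie near each other on chromosome 2, and their promoter windows are shown because both genes had their highest level in OS-LM1. They are the 250 bases before the start at chr2:112784494-112784743 for IL1A and chr2:112836780-112837029 for IL1B, both on the minus strand of GRCh38.p14 as RefSeq gives them, with matches to the searched motifs in capitals.
IL1A: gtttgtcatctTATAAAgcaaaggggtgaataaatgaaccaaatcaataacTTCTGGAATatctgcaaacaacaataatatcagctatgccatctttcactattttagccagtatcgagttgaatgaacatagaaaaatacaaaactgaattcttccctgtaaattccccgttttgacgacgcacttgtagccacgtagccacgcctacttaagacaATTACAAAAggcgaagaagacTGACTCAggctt
IL1B: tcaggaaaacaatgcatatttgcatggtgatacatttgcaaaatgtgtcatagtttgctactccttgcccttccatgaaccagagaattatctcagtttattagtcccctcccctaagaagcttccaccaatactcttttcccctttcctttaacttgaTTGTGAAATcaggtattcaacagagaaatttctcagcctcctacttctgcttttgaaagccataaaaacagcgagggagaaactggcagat
The IL1A window is the first of 2 overlapping ones in RefSeq. It holds TATAAA, which begins 239 bases before the start, an AP-1 form TGACTCA that begins 12 bases before the start, and the C/EBP form TTNNGNAAT on each strand. The other IL1A window, at chr2:112784401-112784650, holds the AP-1 form 2 times, TTNNGNAAT once and no TATAAA. The IL1B window holds TTNNGNAAT once. Of all 35116 windows, 10.7% hold TATAAA, 6.57% TGANTCA, 9.85% TTNNGNAAT and 1.73% the NF-kB form, which neither ligand window holds. The windows shown have 37.6% G and C for IL1A and 40.0% for IL1B, and the other IL1A window has 42.0%. A letter match is not evidence of binding. Windows were found for 8 of the 9 members, 17 in all, and the member without a window is IL18.

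IL18 was the ligand with reads in all libraries, at 74.5 to 282 counts. It was at 10.4 and 8.61 CPM in OS-LM1, 6.21 and 6.39 CPM in M1A, with 1.99 and 2.11 CPM in 786-O. The lines stood in this order without overlap. The log2 fold change was 1.58 ± 0.18 between M1A and 786-O (SE, edgeR adjusted p = 0.000389), a 2.99-fold higher level and the opposite direction to IL1R1. Between OS-LM1 and M1A it was 0.61 ± 0.17 (edgeR adjusted p = 0.0109), a call lost without M1A replicate 1 (0.0726) or replicate 2 (0.0615) or OS-LM1 replicate 1 (0.0673). With iMAE-126, IL18 was at 4.89 and 4.18 CPM, against 5.28 and 5.41 CPM in SC replicates 1 and 2. Its log2 fold change, −0.24 ± 0.16, missed the threshold (edgeR adjusted p = 0.305). With iMAE-1.1 it ranged from 10.8 to 12.6 CPM and with iMAE-1.2 from 9.97 to 11.8 CPM, against 13.5 to 16 CPM in SC replicates 3 to 6. All 8 of these guide libraries were below their controls, by 0.34 with iMAE-1.1 and 0.44 with iMAE-1.2 on the log2 scale, as a description. IL33 was at 0 counts in 17 of the 20 libraries outside OS-LM1 and had 1 and 2 counts in OS-LM1. The antagonist IL1RN had no count in OS-LM1 and 786-O and at most 4 counts in any other library. Its sum of 0 counts in OS-LM1 and 2 counts in M1A allows no statement on a difference.

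**Figure D4:**
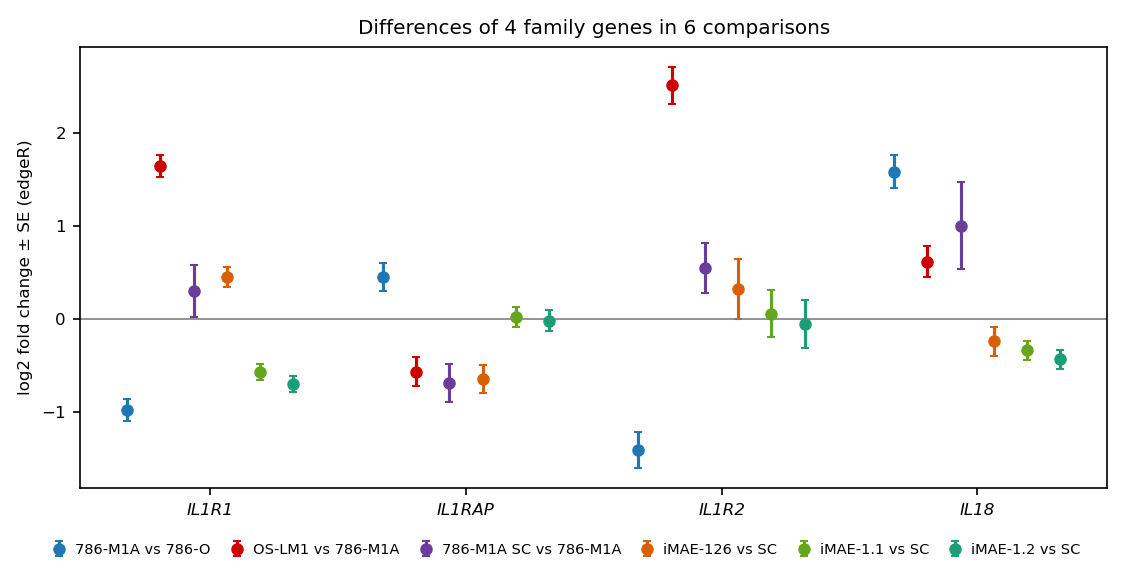
Log2 fold change with its SE from edgeR (y axis) for IL1R1, IL1RAP, IL1R2 and IL18 (x axis) in the 6 comparisons. IL1R1 and IL1R2 are high in OS-LM1 (1.64 and 2.51) and low in M1A against 786-O (−0.98 and −1.41), and IL1RAP is below 0 in OS-LM1, SC and iMAE-126.

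The control libraries themselves divided by set. IL1R1 was at 45.7 and 52.4 CPM in SC replicates 1 and 2 and 27.0 to 29.6 CPM in SC replicates 3 to 6, beside 29.5 and 32.1 CPM in unmodified M1A. The set A mean was 1.75 times the set B mean for IL1R1 and 1.36 times for IL1R2, and was 24.8 beside 16.5 CPM for IL1RAP, whereas for IL18 the set B mean was 2.81 times the set A mean. Over all SC libraries, IL1RAP was lower than in M1A, at 16.3 to 27.7 CPM in SC against 33.1 and 34.1 CPM, with a log2 fold change of −0.69 ± 0.21 (SE, edgeR adjusted p = 0.0213). It was below M1A in 6 of 6 SC libraries and with either set alone, although the call was lost without M1A replicate 1 (0.0953) or replicate 2 (0.121). IL1R1 (0.29 ± 0.28, edgeR adjusted p = 0.389), IL1R2 (0.55 ± 0.27, 0.115) and IL18 (1.00 ± 0.47, 0.097) were not called. With SC replicates 1 and 2 alone, IL1R1 differed from M1A by 0.77 (edgeR adjusted p = 7.11e-05), and with SC replicates 3 to 6 alone by −0.08. IL18 differed by −0.13 with SC replicates 1 and 2 and by 1.31 with SC replicates 3 to 6 (edgeR adjusted p = 9.69e-12). Across genes, the Spearman correlation of gene length with the log2 difference between SC set A and set B was 0.34. The sets were divided by mean gene length, with set A the longer, so the positive sign follows from that division. The correlation was −0.36 for SC against M1A, beside −0.21 for iMAE-126 against SC and −0.19 for OS-LM1 against M1A. The part of library preparation in these values was not tested, and vector, guide and preparation cannot be told apart in the comparison of SC with M1A.

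Other genes of the family were few in these cells. Of 6 receptor genes outside the members, 2 were tested in each comparison, and both rose in OS-LM1 against M1A, where 34.4% of all genes were called higher. IL18R1, the binding chain of the IL18 receptor, had 5.52 to 5.96 TPM in OS-LM1, 2.75 to 2.91 TPM in M1A and 2.77 to 3.06 TPM in 786-O. SIGIRR, which restrains signalling of the family, had 9.51 to 11.6 TPM in OS-LM1, 5.97 to 6.34 TPM in M1A and 12.5 to 13.2 TPM in 786-O. IL18RAP, the signalling chain of the IL18 receptor, had at most 0.28 TPM in any library. Of 7 other ligands and binding proteins, IL18BP was higher in OS-LM1 than in M1A and was the one that passed the filter in every comparison. IL18BP, which neutralises IL18, had 8.84 to 9.43 TPM in OS-LM1 and 5.22 to 6.07 TPM in M1A, and the ligands IL36G (20 counts in OS-LM1, 4 in M1A) and IL37 (13 in OS-LM1, 1 in M1A) rest on few reads and get no test. SIGIRR was lower in M1A than in 786-O (log2 fold change −0.996 ± 0.147 SE, edgeR adjusted p = 0.00159), higher with iMAE-126 than in SC (0.97 ± 0.23, 0.00851) and higher in SC than in M1A (1.64 ± 0.30, 0.00366), where IL18BP was also higher (1.08 ± 0.15, 0.00149). The call of SIGIRR with iMAE-126 was lost without SC replicate 2, without iMAE-126 replicate 2 or without the set term.

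Of 19 tested genes of receptor-proximal signalling, 8 were higher and 5 lower in OS-LM1 against M1A. These 68.4% called stand beside 68.7% of all genes, so the count says nothing about the list. The median log2 fold change was 0.07, beside 0.04 over all genes. IRAK1, the kinase recruited to the receptor complex, was at 176 ± 26.9 CPM in OS-LM1 and 774 ± 35.9 CPM in M1A (SD, n = 2 each), a log2 fold change of −2.12. CHUK, a subunit of the IkB kinase, fell by 1.04 on the log2 scale, while MAP3K8, a kinase upstream of ERK, rose by 1.72 and IRAK3, an inhibitory IRAK, by 1.87. In M1A against 786-O, 7 were higher and 1 was lower, with a median of 0.21 beside −0.02 over all genes. The called share was 42.1%, beside 31.0% of all genes. IRAK1 was at 774 ± 35.9 CPM in M1A, against 384 ± 13.1 CPM in 786-O (SD, n = 2 each), and IRAK2 (0.71) and MAP3K8 (0.70) rose with it, while the ubiquitin ligase PELI1 fell by 0.71 on the log2 scale. The count of 7 dropped to between 2 and 3 when any M1A or 786-O library was left out, PELI1 lost its call without M1A replicate 1, and the 8 in OS-LM1 dropped to 4 without either M1A library and to 5 without OS-LM1 replicate 1. With iMAE-126, 0 were higher and 3 were lower (CHUK −0.59, IRAK1 −0.38 and the adaptor TAB3 −0.34), with a median of −0.12. The 3 dropped to 1 without SC replicate 1 or without iMAE-126 replicate 1, and with all libraries 15.8% were called, beside 16.7% of all genes. In SC against M1A, 3 were higher and 7 lower, a called share of 52.6%, beside 53.0% of all genes. MAP3K8 was at 1.15, and IRAK1 (−0.92), TAB2 (−0.86) and CHUK (−0.84) were among the lower. The 3 became 0 without any 1 of M1A replicates 1 and 2 or SC replicates 3 to 6, and the 7 became 4 and 3 without M1A replicate 1 and replicate 2. With iMAE-1.1 and iMAE-1.2 edgeR called 0 of 19, with 2 and 3 at an unadjusted p under 0.05, and neither DESeq2 nor limma on log2(TPM + 1) called any.

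Of the 12 genes for ligand processing and release that passed the filter in every comparison, 4 were higher and 4 were lower in OS-LM1 against M1A, and their median difference was 0.10 on the log2 scale. With AIM2 and PYCARD, which passed through OS-LM1, 71.4% of 14 were called, beside 68.7% of all genes, so the count says nothing about the list. PYCARD, the adaptor that joins inflammasome sensors to caspase-1, was at 3.86 and 6.21 CPM in OS-LM1 and at 0.0444 and 0.0716 CPM in M1A (no test). The sensor MEFV (1.54) and the calpain subunit CAPNS1 (1.22) were higher on the log2 scale. The 4 lower genes were the calpains CAPN2 (−0.76) and CAPN1 (−0.67), with GSDMD (−0.61) and NLRP1 (−0.59). In M1A against 786-O, 2 of 14 were higher and 2 lower, a called share of 28.6%, beside 31.0% of all genes. The sensor NLRP3 was at 2.41 and 2.79 CPM in M1A, against 0.522 and 0.689 CPM in 786-O (log2 fold change 2.06), and the calpain CAPN2 rose by 0.46. The pore-forming GSDMD (−0.77) and the sensor NLRP1 (−0.37) were lower. Without any 1 of the M1A and 786-O libraries 1 gene was called higher and 0 to 1 lower. With iMAE-126, CASP4 rose by 0.33 and CAPN2 fell by 0.23 on the log2 scale among 12 tested, a called share of 16.7%, which is also that of all genes. The call of CASP4 was lost without SC replicate 1 or 2 or iMAE-126 replicate 2, and that of CAPN2 without any 1 of SC replicates 1, 2, 3, 4 and 6 or the iMAE-126 libraries. In SC against M1A, 5 of 12 were higher and 2 lower, led by MEFV (1.66), NLRP1 (1.08), CAPN2 (−0.88) and GSDMD (0.78). The called share was 58.3%, beside 53.0% of all genes. The 5 became 3 and 1 without M1A replicate 1 and replicate 2, and the 2 became 1 without either. With iMAE-1.1 and iMAE-1.2 edgeR called 0 of 12, with 2 at an unadjusted p under 0.05 for each guide, and DESeq2 called 1 for each.

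Transcripts known to be induced by interleukin-1 in other cells were higher in OS-LM1. Of the 23 that passed the filter in every comparison, 19 were higher and 1 was lower in OS-LM1 than in M1A. Over all genes tested there, 68.7% were called, 34.4% higher and 34.3% lower. Their median log2 fold change was 3.12, beside 0.04 over all genes tested. CSF3, LCN2 and PTGS2 passed it in the fit of the lines only, which holds OS-LM1, where they are high, and with them 22 of 26 were higher and the median was 3.77. The chemokine CCL20 was at 285 and 342 CPM in OS-LM1 and at 0.0954 and 0.133 CPM in M1A, a log2 fold change of 11.38 (edgeR adjusted p = 4.03e-08). Its M1A level rests on few reads, so the size of this difference is uncertain. PTGS2, the inducible cyclooxygenase, had 1282 counts in OS-LM1 and 1 count in M1A, a ratio of 2694 (95% counting interval 483 to 106481). LCN2, a siderophore-binding lipocalin, had 1060 counts in OS-LM1 and 3 counts in M1A, a ratio of 742 (253 to 3606). The growth factor CSF3 had 36 counts in OS-LM1 and 0 counts in M1A, at least 25.2-fold higher in OS-LM1 if the group floor is set at 3 counts. The list holds direct targets of NF-kB that other stimuli also induce, and the stimulus was not measured.

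The same list moved in either direction between M1A and 786-O, with 9 of the 23 higher and 6 lower and a median log2 fold change of 0.43. Over all 26 tested, 9 were higher and 8 lower, and the median was 0.09. The called share of these 26 was 65.4%, beside 31.0% of all genes. Its largest differences were lower levels in M1A. PTGS2 had 1 count in M1A and 104 counts in 786-O, a level 116 times lower in M1A (95% counting interval 20.4 to 4629). Complement C3 was at 5.21 and 5.51 CPM in M1A, against 102 and 107 CPM in 786-O (log2 fold change −4.32 ± 0.12 SE, edgeR adjusted p = 4.31e-07). The acute-phase gene SAA1 fell by 3.64 on the log2 scale, and LCN2 had 3 counts in M1A and 27 counts in 786-O, a level 10.0 times lower (3.09 to 51.7). The growth factor CSF2 was the largest rise, with a log2 fold change of 2.87.

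With iMAE-126, 4 of 23 tested transcripts of the list were higher and 7 were lower than in SC, the median log2 fold change being −0.13. The called share was 47.8%, beside 16.7% of all genes. The neutrophil chemokine CXCL8 was at 5.46 and 5.77 CPM with iMAE-126 and at 18.8 and 22.5 CPM in SC replicates 1 and 2, a log2 fold change of −1.88 ± 0.21 (SE, edgeR adjusted p = 8.03e-05). CSF2 fell by 2.68 and the chemokine CXCL5 by 1.07 on the log2 scale, while SAA1 rose by 1.71. The 7 lower calls became 4 without SC replicate 1 and 2 without iMAE-126 replicate 2, and the 4 higher calls became 1 or 2 without any of SC replicates 1 and 2 or the iMAE-126 libraries. With iMAE-1.1 edgeR called 0 of 23, with 10 at an unadjusted p under 0.05. DESeq2 called 2 there and limma on log2(TPM + 1) called 1. With iMAE-1.2 edgeR called 1 of 23 higher, TNFAIP6 (log2 difference 0.95), and 2 lower, CXCL5 (−0.70) and VCAM1 (−0.58). Of all genes, 2.73% were called with iMAE-1.2. Leaving out 1 library gave 0 to 2 higher and 0 to 2 lower calls of the list, so the iMAE-1.2 calls depend on single libraries. In SC against M1A, 9 of 23 were higher and 1 was lower, led by CCL20 (4.02), SAA1 (3.93), CXCL2 (3.12) and CCL2 (3.0). These 43.5% called stand beside 53.0% of all genes (27.8% higher, 25.3% lower). The 9 became 1 without either M1A library, 16 without SC replicate 1, 18 without SC replicate 2 and 18 with SC replicates 3 to 6 alone.

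**Figure D5:**
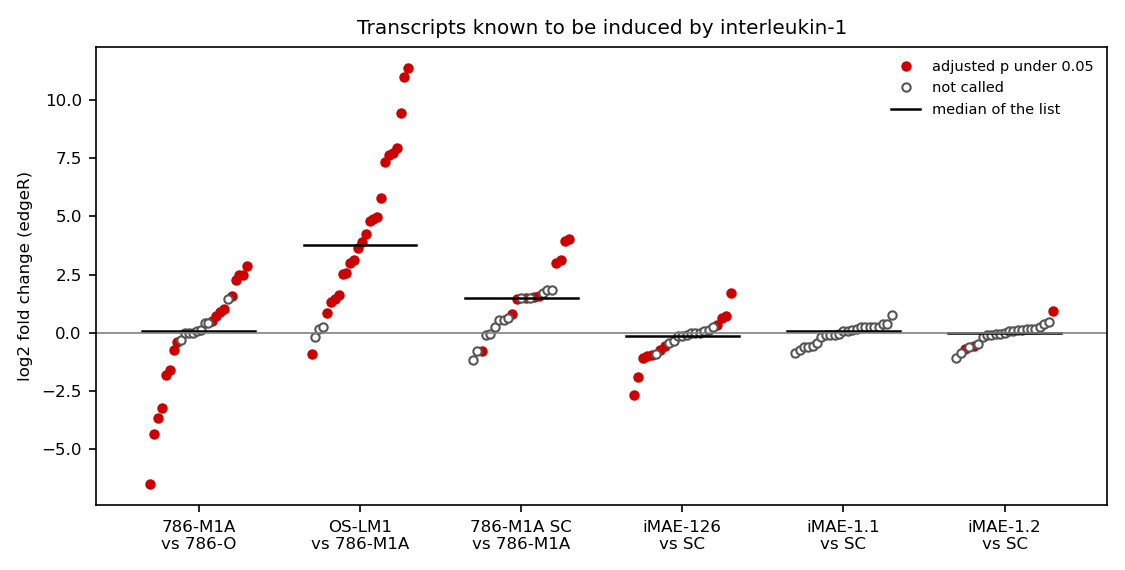
Log2 fold change from edgeR (y axis) of each tested transcript of the list induced by interleukin-1 in the 6 comparisons (x axis), filled where the adjusted p was under 0.05, with a bar at the median of the list. The median is 3.77 in OS-LM1 against M1A and 0.09 in M1A against 786-O, and the highest points of OS-LM1 rest on 0 to 3 counts in M1A for CSF3, PTGS2 and LCN2, where the plotted value depends on the fit's prior count.

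The calls among neighbours of the members on chromosome 2 took no direction common to all comparisons. Of 7 tested neighbours of the receptor cluster, 3 were higher and 3 lower in OS-LM1 against M1A, 1 higher and 2 lower in M1A against 786-O, 1 higher with iMAE-126, and 3 higher and 4 lower in SC against M1A. In that order the called shares were 85.7%, 42.9%, 14.3% and 100%, beside 68.7%, 31.0%, 16.7% and 53.0% of all genes. Of 7 tested neighbours of the ligand cluster, the counts were 2 higher and 4 lower in OS-LM1, 2 higher in M1A against 786-O, 3 lower with iMAE-126, and 2 higher and 3 lower in SC. Here the called shares were 85.7%, 28.6%, 42.9% and 71.4%, beside the same shares of all genes. In the same order, the median log2 fold changes were −0.67, 0.41, −0.25 and −0.27 for the ligand cluster. For the receptor cluster they were −0.23, −0.14, −0.10 and −0.23, beside 0.04, −0.02, 0.003 and 0.07 over all genes. With iMAE-1.1 and iMAE-1.2 edgeR called 0 neighbours in either list, with the kinase gene MAP4K4 at an unadjusted p under 0.05 with iMAE-1.2 and called there by DESeq2, named after its values were seen.

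Among 12268 genes with a group mean of at least 5 CPM, those whose log2 CPM over the 22 libraries was most like that of IL1R1 were SEMA3F (Pearson r = 0.95), C10orf128 (0.95) and SPTLC3 (0.94). SEMA3F, a secreted semaphorin, averaged 78.3 CPM in OS-LM1, 16.1 CPM with iMAE-1.1, 14.6 CPM with iMAE-1.2, 49.4 CPM with iMAE-126, 50.6 CPM in SC replicates 1 and 2, 21.5 CPM in SC replicates 3 to 6, 33.9 CPM in M1A and 36.4 CPM in 786-O. For IL1RAP they were CLIC4 (0.95), TMEM19 (0.94) and SETD3 (0.94), and for IL1R2 they were COA3 (0.94), NT5C3B (0.93) and GPRC5B (0.93). For IL18 they were FAM174A (0.97), SOX9 (0.96) and TNF (0.96). These correlations share the libraries, their sets and their groups, and they are given as a description.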

How the data were processed

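Per the labels' protocols, RNA of cells at 80% confluence in medium with 10% serum was captured by its poly(A) tail, and stranded libraries had 15 amplification cycles. Bowtie2, RSEM and hg19 stand in the submitters' processing notes. No source used here gives versions or the counting's strand option, so reads of a gene and an antisense partner cannot be told apart. The deposited expected counts are the authors' RSEM estimates, fractional where a read could come from several genes, per the file headers. The deposited TPM and FPKM values were derived by the authors from those counts and the gene lengths, per the file headers, and FPKM was not used.

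The rounded expected counts went into edgeR 4.0.16 (R 4.3.3) with TMM factors and a filterByExpr minimum count of 10. Tests were robust quasi-likelihood F tests with Benjamini-Hochberg adjustment over all genes tested, and calls were made below an adjusted p of 0.05. The SE given is the absolute log2 fold change divided by the square root of F, which can be too small where a group has few reads. Of 3 fits, the first held the 16 CRISPRi libraries and a term for library set, the next the 6 libraries of unmodified lines, and the last SC and M1A. The set was inferred from the data by 2-means. Each comparison is the first group over the second. With at most 3 counts in a group, ratios with exact 95% intervals replace fitted folds, and these cover counting error only. The edgeR fits were run on simulated counts with known folds. There the groups shared a common mean per gene apart from the changed genes, so differences between library sets or lines were not covered. No libraries were identical, and for pairs within a group the chi-square per gene averaged 2.20 to 81.7, lowest for SC replicates 4 and 6 and SC replicates 3 and 5 (2.95), which may not be independent.

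All 9 members were described in every group. From 10 gene lists written from general knowledge, up to 4 called genes per comparison with the largest absolute log2 fold change were named. Further names were the family genes, the markers, the lower ligand-processing genes in OS-LM1 and, as the largest rise, CSF2 between M1A and 786-O. These were chosen after their values were seen. For each member with a group mean of at least 5 CPM the 3 most correlated genes on log2 CPM (prior count 2) were named. The members and lists were chosen with earlier results of these data known. Alternatives were RLE factors, DESeq2 1.42.0, no filter, a minimum count of 50, no set term, a block for the replicate number, limma 3.58.1 on log2(TPM + 1), the compared libraries alone, SC subsets and each library left out in turn. Tables were made with Python 3.11.15, pandas 2.3.3, numpy 2.4.6 and scipy 1.17.1, and figures with matplotlib 3.10.9.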

Additional observations from a re-analysis of the deposited data

Results flagged for a closer look

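The gap test of Dixon at the 95% level set 1 library apart in 6 of 26 group values of 4 to 6 libraries. For continuous values chance alone flags about 5% of groups, a rate that does not hold for counts near 0. IL1R2 was at 2.83 CPM in iMAE-1.1 replicate 1, above the other iMAE-1.1 libraries. IL1A was at 0.405 CPM in iMAE-1.1 replicate 2 and at 0.428 CPM in iMAE-1.2 replicate 1, which are 5 and 4 counts. IL1RN was at 0.162 CPM in iMAE-1.1 replicate 2, which is 2 counts where the other libraries of the group had 0. IL33 was at 0.0448 CPM in iMAE-1.1 replicate 4 and at 0.0563 CPM in iMAE-1.2 replicate 3, each a single count. The other libraries of these IL33 groups had 0 counts, so for IL1RN and IL33 any count at all brings the flag.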

How the results depend on the processing

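Of 398 member values under the alternatives, 364 stayed on their side of the threshold (17 of them, with no call under either setting, changed sign), 23 lost and 11 gained a call, and 0 called values reversed. The replicate numbers showed no steady pairing of the samples. Same-numbered libraries of guide groups and SC correlated between −0.09 and 0.24 in their deviations. Those of M1A and 786-O correlated at 0.13, those of SC and M1A at 0.22 and those of OS-LM1 and M1A at −0.27. With 2 libraries in a group or set, same and crossed numbers give values of equal size and opposite sign, so these cannot settle a pairing. A replicate block with crossed numbers for OS-LM1 and M1A gave 6 member calls, with IL1A and IL1B among them, which passed the filter through OS-LM1. It gave 11237 calls over all genes, beside 11232 of 16354 genes tested without any block. Same-numbered libraries of iMAE-1.2 and iMAE-1.1, which were not compared, correlated between −0.60 and −0.28 (other numbers −0.58 to 0.69). These 8 libraries thus share structure that their numbers do not follow. With the replicate block, members called became 0 with iMAE-1.1, 0 with iMAE-1.2, 1 with iMAE-126 and 2 in SC against M1A, while all calls became 1388 with iMAE-126 (2550 without the block), 6 with iMAE-1.1 (273) and 10 with iMAE-1.2 (417). Members called were 1 with iMAE-1.2 without the set term, 1 with iMAE-126 on log2(TPM + 1), and 2 and 3 in SC with SC replicates 3 to 6 or 1 and 2 alone. Leaving out 1 library gave 0 to 2 member calls in SC against M1A, 1 to 2 with iMAE-1.2, 0 to 2 with iMAE-126, 4 to 6 in OS-LM1 (IL1A and IL1B included) and 3 in M1A against 786-O each time. All calls without 1 library ranged from 135 to 271 (iMAE-1.1), 201 to 441 (iMAE-1.2), 728 to 2289 (iMAE-126), 2259 to 2551 (M1A against 786-O, 5064 with all libraries) and 1999 to 9085 (SC against M1A, 7832 with all). DESeq2 called 478 and 652 genes with iMAE-1.1 and iMAE-1.2, the fit without the set term 69 and 110, and the M1A and 786-O libraries alone 8733. On log2(TPM + 1) the share of higher calls was 31.8% in SC against M1A, against 52.3% with counts, and 34.1% with iMAE-1.2, against 50.8%; the median of all genes moved to −0.21 in SC and −0.13 in OS-LM1, against 0.07 and 0.04. Depth left IL1RL1, IL1RN and IL33 untested, and IL1A and IL1B outside OS-LM1 rest on at most 9 counts per library. The cause of these dependences was not tested.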
